A study of Mus musculus with 20 samples.

Results

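The genes described here build and fuel the contractile apparatus of skeletal muscle, and they were followed in full-thickness mouse skin that had been inflamed with interleukin-23 (IL-23). The list of 39 members was fixed by name, and a member was measured by every probe-set that the annotation of the array assigns to that gene symbol alone. Of the 39 genes, 38 had a probe-set, and Xirp2 was not analysed here. The 38 genes had 63 of the 45101 probe-sets of the array. Of these, 58 probe-sets, with at least 1 for each of the 38 genes, passed the filter on expression and were tested among 30960 probe-sets. Where a gene had several probe-sets, the one with the highest mean over the 20 arrays stands for it below.

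Mouse skin lies on a thin sheet of striated muscle, the panniculus carnosus, so that RNA of full-thickness skin carries muscle transcripts. In a muscle fibre, myosin thick filaments pull on actin thin filaments that are anchored at the Z-disc, titin spans the sarcomere as a spring, and calcium released from the sarcoplasmic reticulum frees the thin filament by binding to troponin. Fast and slow fibres, and developing and mature fibres, use different isoforms of myosin and troponin, and slow troponins are also made by developing fibres. Because a whole tissue was measured, fewer muscle fibres in a sample and less RNA per fibre cannot be told apart.

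The samples came from 20 female C57BL/6 mice, purchased at 6 weeks of age and housed for 1 week, with 1 array per mouse. Naïve mice (n = 5, mice 16 to 20) received no IL-23. The other 15 mice received 3 µg of recombinant IL-23 per day into the dorsal skin on days 1 to 4. On days 4 to 6 they were then injected subcutaneously at a distant site with phosphate-buffered saline (n = 5, mice 11 to 15), with 15 mg/kg of IMO-3100, an oligonucleotide antagonist of Toll-like receptors (TLR) 7 and 9 (n = 5, mice 6 to 10), or with 15 mg/kg of IMO-8400, an antagonist of TLR7, 8 and 9 (n = 5, mice 1 to 5). Skin was collected on day 7. Since naïve mice had neither IL-23 nor injections, an effect of IL-23 and an effect of the needle cannot be told apart.

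Expression was read as the deposited log2 values after GCRMA, so that 1 unit is a 2-fold difference. A probe-set counted as a differentially expressed gene (DEG), and is said to rise or fall, at a false-discovery rate (FDR) under 0.05 in limma together with a fold change (FCH) over 2. Array medians lay between 6.086 and 6.286, and the number of arrays limits the precision. The keratinocyte and fibroblast marker lists had means per mouse of 13.9 to 14.4 and 13.4 to 14.2, and the muscle-defining genes Acta1, Ckm, Myh4, Tnnt3, Ttn and Des were far above background in all 20 mice. Naïve mouse 16 stood apart. It was the lowest naïve mouse in 35 of the 38 muscle genes, had the lowest weight of all arrays when arrays were weighted by their fit (0.112, against 0.593 to 1.97 for the others), and had the highest mean of the hair follicle list (13.51, against 4.02 to 12.19 in the other naïve mice). Values without this mouse are given beside the results of several members. Among the other groups, saline mouse 12 was lowest in 32 of 38 genes, IMO-3100 mouse 9 in 26 and IMO-8400 mouse 1 in 22.

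Promoter sequences show what the DNA before these genes looks like, and 28 of the 38 genes had an entry in the RefSeq table (GRCm38.p6). The 250 bases before the start are printed for 3 members that fell in IL-23 skin (Ttn, Myh4 and Pygm) and for the 3 slow troponins that rose, so that both kinds can be compared. Each E-box, CANNTG, the sequence recognised by myogenic factors such as MyoD and myogenin, is in capitals.
Ttn (chr2:76982548-76982797, minus strand): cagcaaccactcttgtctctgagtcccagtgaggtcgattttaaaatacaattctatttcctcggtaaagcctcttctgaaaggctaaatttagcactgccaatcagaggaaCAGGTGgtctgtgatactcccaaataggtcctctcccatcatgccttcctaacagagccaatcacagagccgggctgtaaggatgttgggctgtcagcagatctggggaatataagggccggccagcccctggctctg
Myh4 (chr11:67237562-67237811, plus strand): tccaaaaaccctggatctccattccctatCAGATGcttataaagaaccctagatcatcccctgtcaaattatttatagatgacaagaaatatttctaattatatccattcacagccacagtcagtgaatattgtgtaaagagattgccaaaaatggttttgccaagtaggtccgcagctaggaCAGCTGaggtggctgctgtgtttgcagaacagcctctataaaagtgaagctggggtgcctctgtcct
Pygm (chr19:6384158-6384407, plus strand): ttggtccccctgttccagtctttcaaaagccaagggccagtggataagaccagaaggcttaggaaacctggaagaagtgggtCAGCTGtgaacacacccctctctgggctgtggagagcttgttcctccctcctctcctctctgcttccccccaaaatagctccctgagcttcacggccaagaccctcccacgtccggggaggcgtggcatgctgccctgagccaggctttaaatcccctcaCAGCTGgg
Tnnt1 (chr7:4515976-4516225, minus strand): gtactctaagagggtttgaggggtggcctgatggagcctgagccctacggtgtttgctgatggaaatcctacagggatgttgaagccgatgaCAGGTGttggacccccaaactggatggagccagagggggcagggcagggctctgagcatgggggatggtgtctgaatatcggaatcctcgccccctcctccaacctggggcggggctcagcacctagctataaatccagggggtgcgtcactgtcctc
Tnni1 (chr1:135799171-135799420, plus strand): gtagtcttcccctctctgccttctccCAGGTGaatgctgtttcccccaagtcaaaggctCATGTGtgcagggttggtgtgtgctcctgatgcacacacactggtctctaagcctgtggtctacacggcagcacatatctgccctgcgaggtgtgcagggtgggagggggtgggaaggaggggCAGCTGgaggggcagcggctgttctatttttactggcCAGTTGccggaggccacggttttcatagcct
Tnnc1 (chr14:31208062-31208311, plus strand): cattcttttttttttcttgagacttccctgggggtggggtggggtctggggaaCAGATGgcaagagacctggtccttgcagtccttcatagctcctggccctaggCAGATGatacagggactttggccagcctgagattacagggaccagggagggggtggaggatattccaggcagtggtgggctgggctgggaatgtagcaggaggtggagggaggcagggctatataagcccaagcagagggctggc

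These 6 windows each held at least 1 E-box, with 1 each for Ttn and Tnnt1, 2 each for Myh4, Pygm and Tnnc1, and 4 for Tnni1. The motif was thus present both before genes that fell and before genes that rose, but Myh2 and Ldb3, which also fell, held none in this window. Over the 33 windows of the 28 genes, which overlap for Tnni1, Ldb3 and Mb, 78.8% held an E-box, against 66.2% of the 32851 windows of the whole table. A site for MEF2, a muscle transcription factor, was found on either strand in 18.2% of the member windows and in 2.9% of all windows. Among the printed windows those of Ttn and Myh4 held a MEF2 site, and those of Pygm and the slow troponins held none. The CArG box, which binds serum response factor, was found in 12.1% of member windows against 1.5% of all, and TATAAA on either strand, part of whose matches overlap MEF2 sites, in 15.2% against 12.4%. These are letter matches in a short window and not measured binding.

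IL-23 skin differed from naïve skin in 2 directions among these genes. In saline mice 20 of the 58 member probe-sets were lower than in naïve mice, where 8.92% of all tested probe-sets were lower, and 3 were higher, where 7.58% of all were higher. The 20 lower probe-sets came from 12 genes, of which Ttn alone contributed 5 and Ldb3 3. By the probe-set that stands for a gene, 9 genes fell (Myh2, Myh4, Ttn, Myoz1, Ldb3, Myot, Xirp1, Cacna1s and Pygm) and 3 rose (the slow troponins Tnnt1, Tnni1 and Tnnc1). The median log2 FCH of the 38 genes was -0.70, beside a median of -0.04 for all tested probe-sets. Without the slow troponins, which were set apart after the values were seen, 34 of 35 genes had a log2 FCH below 0. The exception was Sln (0.35), and of all tested probe-sets 46.8% were above 0. Leaving out naïve mouse 16 raised the number of lower probe-sets from 20 to 31 and moved the median to -1.01, whereas leaving out naïve mouse 17, the highest in 20 genes, lowered the number to 14 with a median of -0.59.

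**Figure D1:**
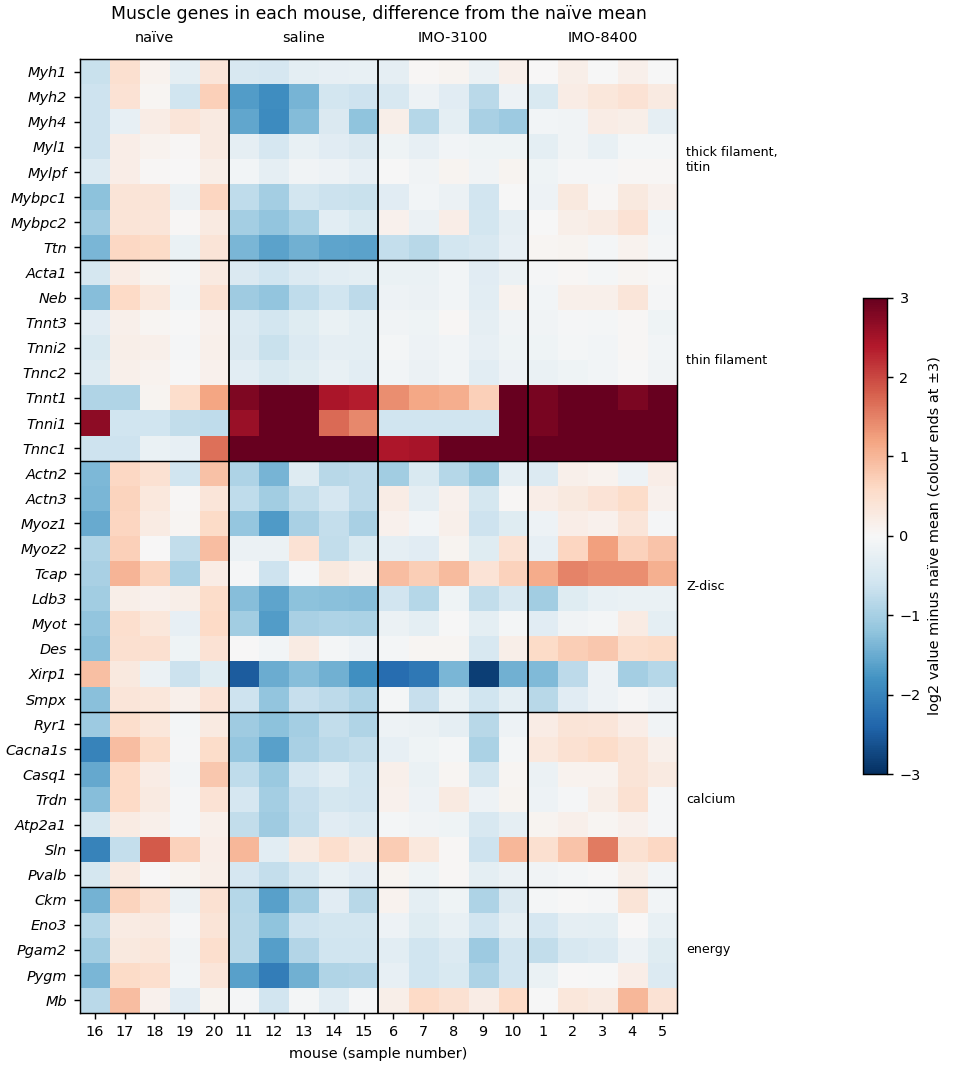
Each row is 1 of 38 muscle genes and each column 1 mouse, and the colour is the log2 expression value minus the mean of the 5 naïve mice, with the colours ending at 3 units either way. The 5 saline mice are blue in most rows, the IMO-8400 mice are close to white, the 3 slow troponins are red in all saline and IMO-8400 mice, and naïve mouse 16 is blue in most rows among the naïve mice.

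Most of the genes that fell in saline skin were higher with IMO-8400, and fewer probe-sets passed the test with IMO-3100. In IMO-8400 mice 20 of 58 member probe-sets from 11 genes were higher than in saline mice (4.46% of all tested probe-sets were) and 0 were lower (3.59% of all were). At an unadjusted limma p under 0.05 there were 47 higher (20.8% of all were) and 0 lower (19.1% of all were). The genes that rose were Myh2, Myh4, Ttn, Actn3, Myoz1, Tcap, Ryr1, Cacna1s and Pygm. All 38 genes had a log2 FCH above 0, as did 51.8% of all tested probe-sets, with a median of 0.82 beside 0.01 for all. In IMO-3100 mice 5 of 58 probe-sets were higher than in saline mice (2.69% of all were) and 1 was lower (3.73% of all were). The 5 higher probe-sets were 3 of Ttn, 1 of Myh4 and 1 of Myoz1, none of them the probe-set that stands for its gene, and the lower one was Tnni1. No gene rose by its own probe-set, although 19 of 38 were higher at an unadjusted p under 0.05 (18.5% of all probe-sets were), and the median was 0.46 beside 0.01 for all probe-sets. Both antagonists were compared with the same saline mice, which also define the fall, so that the fall and the rises are not independent results.

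The 2 antagonists, given at the same dose and on the same days, form 1 pair, and few members passed the test between them. IMO-8400 mice had 2 member probe-sets higher than IMO-3100 mice (0.333% of all tested were), Tnni1 and Xirp1, and 0 lower (0.245% of all were). At an unadjusted p under 0.05 these counts were 14 (12.0% of all were) and 1 (9.49% of all were). The median log2 difference of the 38 genes was 0.28, beside 0.02 for all probe-sets. Of the 38 intervals at 95%, 28 held 0, 10 lay above 0 and none below, and 22 lay within 1 log2 unit of 0, so that the intervals of the other 16 reached beyond 2-fold. The groups of mice did not overlap for 8 of the 38 genes, in each of which IMO-8400 was higher, as was the case for 5.03% of all tested probe-sets. The sample labels name the compounds, the receptors that they block were taken from the methods of the study, and the series' record speaks of 2 doses of 1 antagonist instead.

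**Figure D2:**
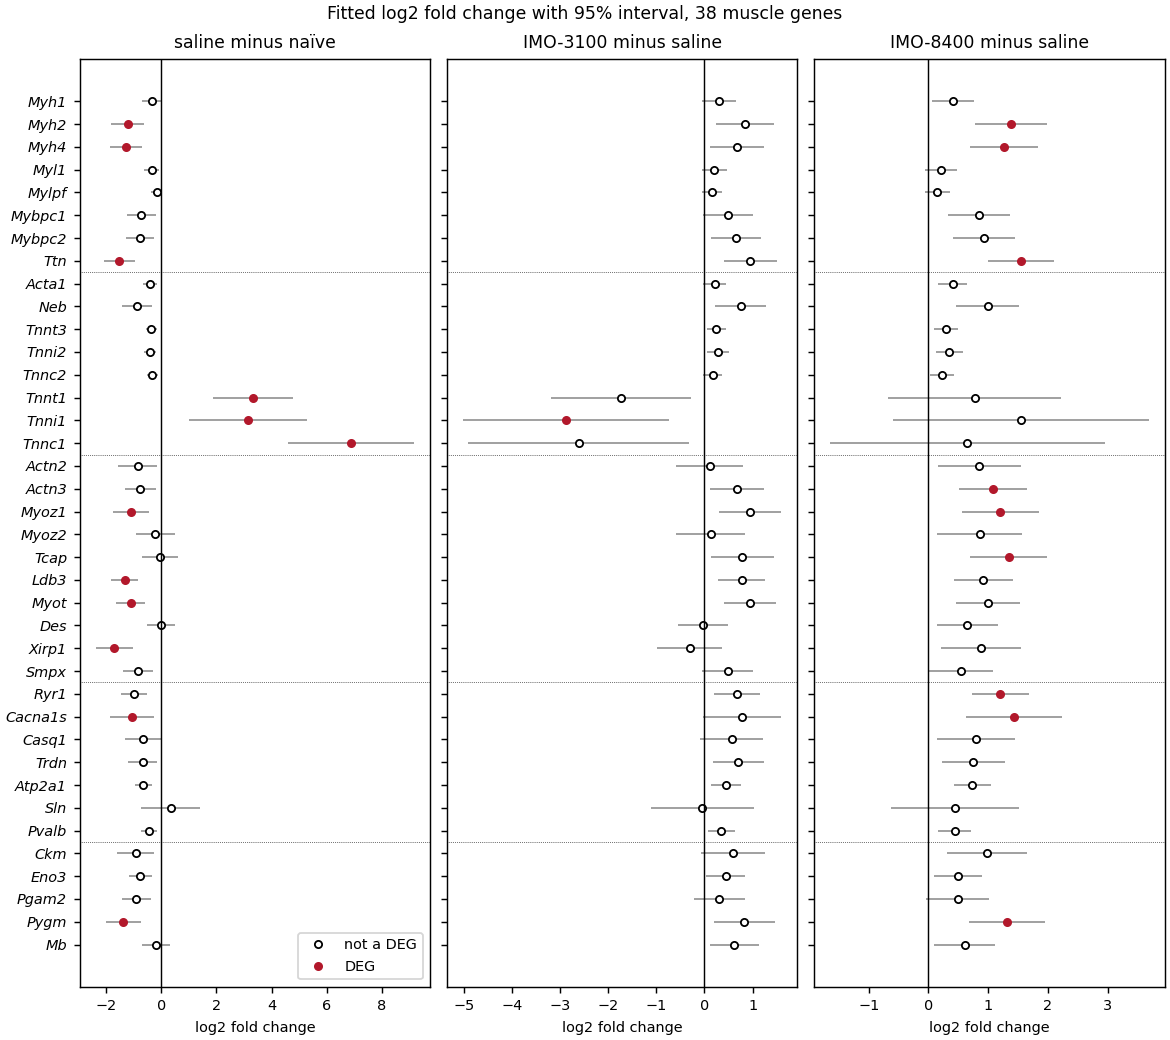
Fitted log2 fold change (x axis, points) with its 95% interval (lines) for 38 muscle genes, in saline against naïve, IMO-3100 against saline and IMO-8400 against saline, with 5 mice in each group and separate x axes. Filled points are DEGs. Most genes lie left of 0 in saline against naïve and right of 0 in the other panels, while Tnnt1, Tnni1 and Tnnc1 lie far right in the first panel.

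Among the thick filament genes and titin, 3 of 8 fell in saline mice, 3 of 8 rose with IMO-8400 and none with IMO-3100, by the probe-set that stands for a gene. Of all their probe-sets 50% fell (8.92% of all tested did), 55.6% rose with IMO-8400 (4.46% did) and 22.2% with IMO-3100 (2.69% did). Ttn, the giant spring of the sarcomere, had values of 11.98, 13.96, 13.93, 13.16 and 13.73 in naïve mice 16 to 20 and of 11.98, 11.74, 11.92, 11.77 and 11.75 in saline mice 11 to 15. IMO-3100 mice 6 to 10 had Ttn values of 12.64, 12.51, 12.80, 12.86 and 13.10, and IMO-8400 mice 1 to 5 had 13.41, 13.44, 13.29, 13.45 and 13.30. The Ttn means were 13.35 ± 0.83, 11.83 ± 0.11, 12.78 ± 0.23 and 13.38 ± 0.08 (SD, n = 5 each) in that order of groups. The 3 injected groups did not overlap and were ordered saline, IMO-3100, IMO-8400, and naïve mouse 16 lay at the level of the saline mice. Ttn was 2.87-fold lower in saline than in naïve mice (log2 -1.52, SE 0.26, adjusted p = 0.000177, or -1.86 without naïve mouse 16) and 2.92-fold higher with IMO-8400 than with saline (log2 1.55, SE 0.26, adjusted p = 0.000482). The difference between IMO-3100 and saline was 0.95 (SE 0.26, adjusted p = 0.0129), short of 2-fold, and that between the antagonists was 0.60 with an interval from 0.04 to 1.15 (adjusted p = 0.198). In limma fits without 1 mouse, the adjusted p of the difference between the antagonists went from 0.015 to 0.318. It was 0.015 without naïve mouse 16, which enters through the estimate of the spread that all groups share. The difference stayed under 2-fold.

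Of the 5 other Ttn probe-sets, 4 had DEGs in the same directions, with log2 FCH of -1.10 to -1.62 in saline against naïve mice and 1.18 to 1.77 for IMO-8400 against saline. The other one was near the lowest values of the array, with a mean of 2.06. Thus the result for Ttn did not rest on 1 probe-set. Myh4, the myosin heavy chain of the fastest fibres (type IIB), had values of 13.91, 14.29, 14.76, 14.89 and 14.81 in naïve mice and of 12.97, 12.64, 13.23, 14.11 and 13.32 in saline mice. With IMO-3100 the Myh4 values were 14.71, 13.68, 14.25, 13.56 and 13.45, and with IMO-8400 they were 14.46, 14.42, 14.76, 14.71 and 14.27. Saline mouse 14 overlapped the naïve range through naïve mouse 16, whereas all IMO-8400 mice lay above all saline mice. Myh4 was 2.43-fold lower in saline than in naïve mice (adjusted p = 0.000969), or 2.71-fold without naïve mouse 16, and 2.41-fold higher with IMO-8400 than with saline (adjusted p = 0.00242).

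Myh2, the heavy chain of type IIA fibres, fell 2.34-fold in saline mice and was 2.62-fold higher with IMO-8400 (adjusted p = 0.00204). Myh1, the heavy chain of type IIX fibres, was not a DEG, with a log2 FCH of -0.35 in saline and of 0.41 with IMO-8400. Its 3 probe-sets and those of its neighbours Myh2 and Myh4 detect closely related transcripts, so that signal shared between these paralogs cannot be told apart here. Myl1 and Mylpf, the light chains of fast myosin, had log2 FCH of -0.35 and -0.17, and Mybpc1 and Mybpc2, which encode the slow and fast forms of myosin-binding protein C, of -0.73 and -0.78. These 4 were not DEGs by the probe-set that stands for them. Of the 2 other Mybpc1 probe-sets, 1 fell in saline skin (-1.12), and both rose with IMO-8400 (1.14 and 1.05).

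In the thin filament the isoforms separated. The 5 other genes, Acta1 (skeletal actin), Neb (nebulin) and the fast troponins Tnnt3, Tnni2 and Tnnc2, had log2 FCH between -0.88 and -0.33 in saline mice and between 0.23 and 0.99 with IMO-8400, and none was a DEG, although all 5 passed the FDR in saline against naïve mice (24.0% of all probe-sets were lower at the FDR alone). The 3 slow troponins, which bind tropomyosin (Tnnt1), inhibit the filament (Tnni1) and bind calcium (Tnnc1), rose in saline skin. Tnnc1 had values of 2.39, 2.39, 2.81, 2.76 and 4.65 in naïve mice and of 9.60, 11.78, 11.35, 8.11 and 8.53 in saline mice. In IMO-3100 mice its values were 5.43, 5.47, 6.31, 7.54 and 11.57, and in IMO-8400 mice 8.17, 9.49, 12.74, 10.09 and 12.14. All 15 injected mice were above all naïve mice, and IMO-3100 mouse 10 stood far above the other IMO-3100 mice. The fitted log2 FCH of Tnnc1 was 6.87 (SE 1.09, adjusted p = 0.000081) in saline against naïve mice, and its size depends in part on the array's lowest values, since 4 of 5 naïve mice lay below 3. In IMO-3100 against saline mice Tnnc1 was not a DEG (-2.61, adjusted p = 0.0850), but without IMO-3100 mouse 10 it was (-3.69, adjusted p = 0.00925).

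Tnnt1 had values of 5.60, 5.58, 6.57, 7.02 and 7.68 in naïve mice and of 9.30, 10.86, 11.19, 8.94 and 8.84 in saline mice, and these groups did not overlap. With IMO-3100 the Tnnt1 values were 7.89, 7.66, 7.57, 7.20 and 10.15, and with IMO-8400 they were 9.34, 10.12, 12.33, 9.31 and 11.88. Thus 4 of the 5 IMO-3100 mice were below all saline mice, and mouse 10 was within their range. Tnnt1 was 10.1-fold higher in saline than in naïve mice (log2 3.33, SE 0.69, adjusted p = 0.000874). Its difference between IMO-3100 and saline was -1.73 (SE 0.69, adjusted p = 0.0722), and without mouse 10 it was -2.24 with an adjusted p of 0.0227.

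Tnni1 had values of 7.26, 3.99, 3.99, 3.85 and 3.82 in naïve mice and of 7.17, 9.35, 9.78, 6.28 and 6.03 in saline mice. Mice 6 to 9 of the IMO-3100 group all had 3.99 and mouse 10 had 8.30, whereas IMO-8400 mice had 7.42, 9.01, 10.93, 7.82 and 11.14. The value 3.99 was shared by 6 of the 20 arrays, so that there is no order among them. Naïve mouse 16 and IMO-3100 mouse 10 lay within the saline range. Tnni1 was 8.83-fold higher in saline than in naïve mice (log2 3.14, SE 1.02, adjusted p = 0.0182), a call that was lost without saline mouse 12 (2.73) or 13 (2.63, adjusted p = 0.0561), and 3.81 on the log2 scale without naïve mouse 16. It was 7.31-fold lower with IMO-3100 than with saline (log2 -2.87, adjusted p = 0.0446) and 21.3-fold higher with IMO-8400 than with IMO-3100 (log2 4.41, SE 1.02, adjusted p = 0.0262). Both folds are fitted values whose size depends on the shared value of 3.99 in 4 of 5 IMO-3100 mice and on mouse 10, without which they were -3.73 and 5.27 on the log2 scale. With IMO-8400 against saline the slow troponins were not DEGs, with intervals of -0.68 to 2.22 for Tnnt1, -0.60 to 3.69 for Tnni1 and -1.64 to 2.95 for Tnnc1. The calls of Tnni1 with IMO-3100 against saline and between the antagonists held in 9 and 15 of the 20 fits that left out 1 mouse, with adjusted p-values of up to 0.123 and 0.0768.

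**Figure D3:**
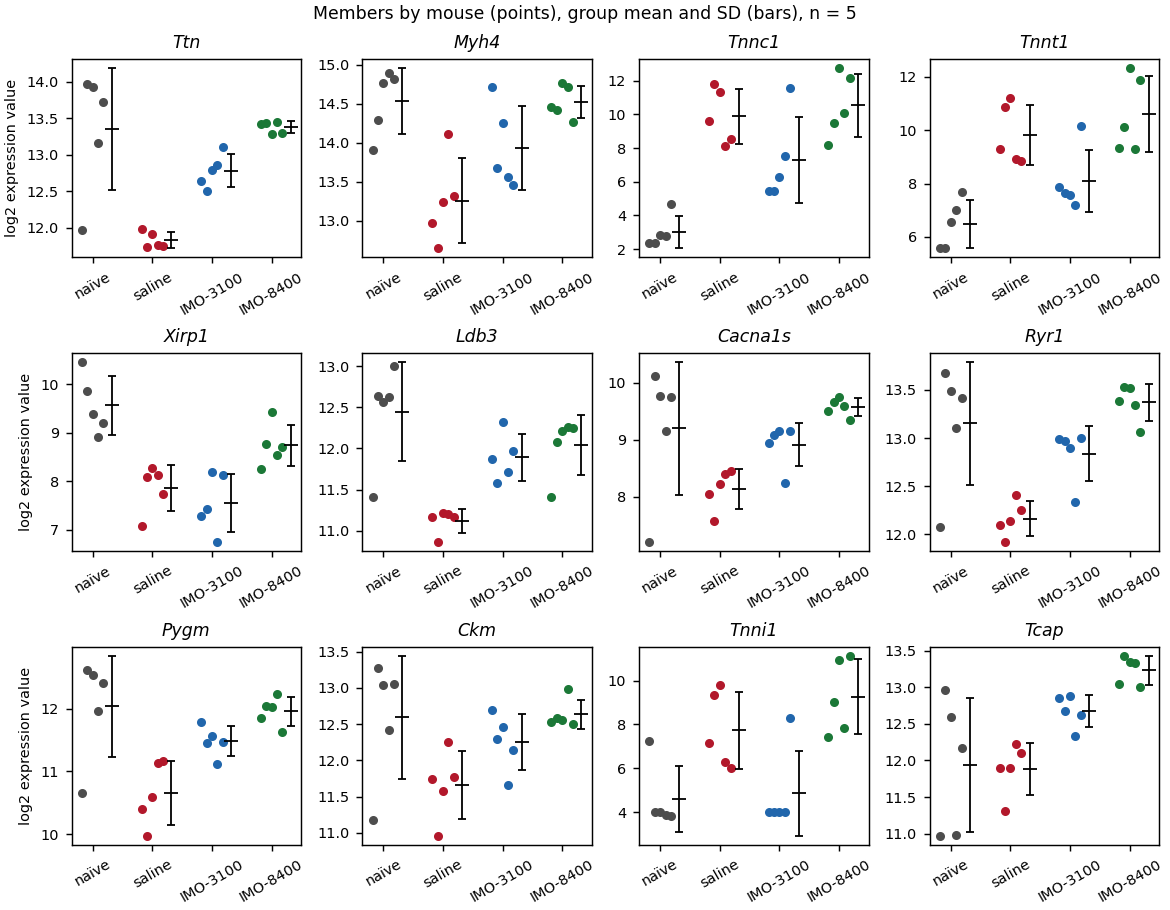
Log2 expression value (y axis, a scale of its own in each panel) of 12 members by group, with 1 point per mouse in the order of the mouse numbers and bars for the mean and SD of 5 mice. Ttn separates the 3 injected groups, the slow troponins Tnnc1, Tnnt1 and Tnni1 are lower in 4 of 5 IMO-3100 mice than in mouse 10, and naïve mouse 16, the first naïve point, is low in most panels but at 7.26, within the saline range, for Tnni1.

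Against naïve skin the slow troponins stayed higher with IMO-8400, while none of the 9 fallen genes was a DEG. IMO-8400 mice had 4 member probe-sets above naïve mice (3.60% of all tested were) and 0 below (2.43% of all were), with 5 (15.3% of all) and 1 (17.2% of all) at an unadjusted p under 0.05. The 4 were Tnnt1 (log2 4.11), Tnni1 (4.68), Tnnc1 (7.53) and Tcap (1.30). IMO-3100 mice had 1 member probe-set above naïve mice (4.90% of all were), Tnnc1 with 4.26 (3.19 without IMO-3100 mouse 10), and 2 below (4.55% of all were), that of Xirp1 with -2.01 and a further probe-set of Ldb3 with -1.30. The medians over the 38 genes were 0.07 for IMO-8400 and -0.15 for IMO-3100. They rested on single naïve mice, with -0.16 and -0.41 without naïve mouse 16 and 0.20 and -0.07 without naïve mouse 17. Expressed as a share of the fall in log2 value from naïve to saline mice, the 9 fallen genes regained between 51.7% (Xirp1) and 135% (Cacna1s) with IMO-8400. With IMO-3100 the share was -18.1% for Xirp1 and between 52.9% (Myh4) and 86.1% (Myoz1) for the others. The shares also rest on naïve mouse 16, without which the falls were larger for all of these genes but Xirp1 (log2 -1.48). Without it, the changes in saline and with IMO-8400 were -1.56 and 1.43 for Cacna1s and -1.38 and 1.39 for Myh2. They were -1.86 and 1.55 for Ttn and -1.48 and 1.21 for Myoz1. The 9 genes were selected by their fall and share the saline mice with it, so that the shares are a description without a test.

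At the Z-disc, where thin filaments are anchored, 4 of 10 genes fell in saline skin and 3 of 10 rose with IMO-8400. By probe-set 53.8% fell (8.92% of all tested did) and 46.2% rose (4.46% of all did). Xirp1, an actin-binding repeat protein of muscle attachment sites, had values of 10.47, 9.86, 9.38, 8.92 and 9.21 in naïve mice and of 7.08, 8.08, 8.28, 8.13 and 7.73 in saline mice. IMO-3100 mice had Xirp1 values of 7.28, 7.42, 8.19, 6.75 and 8.13, and IMO-8400 mice of 8.25, 8.78, 9.42, 8.55 and 8.71. Naïve mice were above all saline and IMO-3100 mice, and, in contrast to the other members that fell, Xirp1 was highest in naïve mouse 16. Xirp1 was 3.26-fold lower in saline than in naïve mice (log2 -1.70, SE 0.32, adjusted p = 0.000389), and the difference between IMO-3100 and saline was -0.31 (interval -0.98 to 0.37). It was 2.28-fold higher with IMO-8400 than with IMO-3100 (log2 1.19, SE 0.32, adjusted p = 0.0468), a call that held in 4 of 20 fits without 1 mouse (adjusted p up to 0.116).

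Ldb3, a PDZ-LIM protein that binds alpha-actinin, had values of 11.41, 12.63, 12.57, 12.62 and 13.00 in naïve mice and of 11.17, 10.86, 11.21, 11.20 and 11.16 in saline mice. The Ldb3 values were 11.88, 11.58, 12.32, 11.71 and 11.97 with IMO-3100 and 11.41, 12.08, 12.21, 12.26 and 12.25 with IMO-8400. All saline mice were below all mice of the other groups. Ldb3 was 2.51-fold lower in saline than in naïve mice (adjusted p = 0.000211), or 3.00-fold without naïve mouse 16, and the antagonists differed from saline by 0.77 and 0.92 on the log2 scale (adjusted p = 0.0213 and 0.00744), under 2-fold.

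Tcap, which caps the ends of titin at the Z-disc, followed another course. Its values were 10.97, 12.96, 12.60, 10.98 and 12.16 in naïve mice and 11.90, 11.31, 11.90, 12.22 and 12.10 in saline mice. With IMO-3100 it had values of 12.85, 12.68, 12.88, 12.34 and 12.62, and with IMO-8400 of 13.05, 13.43, 13.34, 13.34 and 13.00. The saline values lay within the naïve range (log2 FCH -0.05), and all IMO-8400 mice were above all mice of the other 3 groups. Tcap was 2.54-fold higher with IMO-8400 than with saline (adjusted p = 0.00377) and 2.46-fold higher than in naïve mice (adjusted p = 0.00794), a value that went from 1.30 to 1.05 on the log2 scale without naïve mouse 16. Des, the desmin of intermediate filaments, had a log2 FCH of -0.01 in saline (interval -0.52 to 0.50) and 0.65 with IMO-8400 (adjusted p = 0.0555). Myoz1, the calsarcin of fast fibres, and Myot, a Z-disc protein that binds alpha-actinin and filamin, fell 2.15-fold and 2.16-fold in saline skin. Actn3, the alpha-actinin of fast fibres, was 2.12-fold higher with IMO-8400 than with saline (adjusted p = 0.00672). Actn2, its counterpart in all fibres, and Myoz2, the calsarcin of slow fibres, had log2 FCH of 0.85 and 0.86 (adjusted p = 0.0638 and 0.0666). These did not pass the FDR, and the sizes of the changes were not tested against that of Actn3.

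Of the genes of calcium release and uptake, 1 of 7 fell in saline skin and 2 of 7 rose with IMO-8400. By probe-set 16.7% fell (8.92% of all tested did) and 25% rose (4.46% of all did). Cacna1s, the voltage sensor of the T-tubule, had values of 7.21, 10.12, 9.77, 9.16 and 9.75 in naïve mice and of 8.05, 7.58, 8.23, 8.40 and 8.46 in saline mice. Its values were 8.95, 9.08, 9.15, 8.25 and 9.15 with IMO-3100 and 9.51, 9.67, 9.76, 9.59 and 9.35 with IMO-8400. Naïve mouse 16 was the lowest of all 20 mice, and the IMO-8400 mice were above all saline and IMO-3100 mice. The fall in saline was 2.09-fold (log2 -1.06, SE 0.38, adjusted p = 0.0313), with -1.56 without naïve mouse 16 and -0.83 (adjusted p = 0.0964) without naïve mouse 17. The rise with IMO-8400 was 2.70-fold (adjusted p = 0.0101).

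Ryr1, the calcium release channel of the sarcoplasmic reticulum, had values of 12.07, 13.68, 13.49, 13.10 and 13.41 in naïve mice and of 12.10, 11.92, 12.14, 12.40 and 12.25 in saline mice. In IMO-3100 mice Ryr1 had 12.99, 12.97, 12.89, 12.33 and 13.00, and in IMO-8400 mice 13.38, 13.54, 13.52, 13.35 and 13.06. Naïve mouse 16 and IMO-3100 mouse 9 lay in the saline range. The log2 FCH of -0.99 in saline (adjusted p = 0.0019) was just under 2-fold, and it was -1.26 without naïve mouse 16, while the rise with IMO-8400 was 2.31-fold (adjusted p = 0.00101). Atp2a1, the calcium pump of fast fibres, had log2 FCH of -0.65 in saline and 0.73 with IMO-8400 (adjusted p = 0.00162 and 0.00158), and Pvalb, the calcium buffer parvalbumin, of -0.45 and 0.44. Casq1, which stores calcium in the reticulum, and Trdn, which links it to the release channel, had -0.66 each, and Sln, a peptide inhibitor of the pump, had 0.35 with naïve values from 5.11 to 8.96.

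Among the 5 energy genes, Pygm fell in saline skin and rose with IMO-8400, and the others were not DEGs by the probe-set that stands for them. Of all their probe-sets 33.3% fell (8.92% of all tested did) and 16.7% rose (4.46% of all did). Pygm, the glycogen phosphorylase of muscle, had values of 10.66, 12.62, 12.54, 11.97 and 12.41 in naïve mice and of 10.41, 9.97, 10.59, 11.14 and 11.16 in saline mice. Pygm values were 11.79, 11.45, 11.57, 11.12 and 11.47 with IMO-3100 and 11.85, 12.05, 12.03, 12.25 and 11.63 with IMO-8400. All IMO-8400 mice were above all saline mice, and naïve mouse 16 was within the saline range. Pygm was 2.61-fold lower in saline than in naïve mice (adjusted p = 0.00131), or 3.32-fold without naïve mouse 16, and 2.48-fold higher with IMO-8400 than with saline (adjusted p = 0.00414).

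Ckm, the creatine kinase of muscle, had values of 11.17, 13.27, 13.04, 12.42 and 13.05 in naïve mice and of 11.75, 10.96, 11.58, 12.25 and 11.77 in saline mice. It had 12.69, 12.30, 12.46, 11.66 and 12.15 with IMO-3100 and 12.54, 12.58, 12.56, 12.99 and 12.51 with IMO-8400. The log2 FCH of Ckm was -0.93 in saline (SE 0.32, adjusted p = 0.0240), or -1.29 without naïve mouse 16, and 0.97 with IMO-8400 (adjusted p = 0.0295). The IMO-8400 mice did not overlap the saline mice. The glycolytic enzymes Eno3 and Pgam2 had log2 FCH of -0.76 and -0.91 in saline skin and of 0.50 and 0.49 with IMO-8400, and Mb, the oxygen store myoglobin, of -0.21 and 0.61.

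Changes were smaller where the probe-set was bright. The 10 genes other than slow troponins with a mean above 14 had a median log2 FCH of -0.39 in saline skin and 1 of them fell, while the 25 genes with a mean of 14 or less had a median of -0.86 and 8 fell. The limit of 14 was chosen after the values were seen, the highest value of the arrays was 15.8, and brightness of different probe-sets is no measure of relative transcript abundance. Whether the upper end of the signal range takes part in the small changes of bright probe-sets was not tested.

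**Figure D4:**
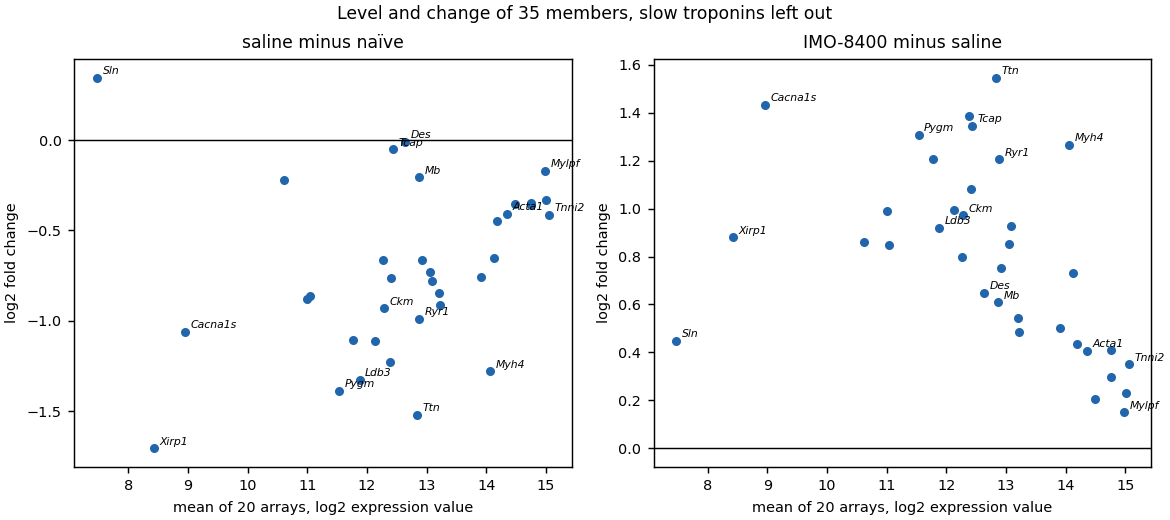
Mean log2 expression value of the 20 arrays (x axis) and log2 fold change (y axis) of the 35 members other than slow troponins, in saline against naïve mice and in IMO-8400 against saline mice, with 1 point per gene. Above a mean of 14, the genes other than Myh4 lie between -0.65 and -0.17 in the first panel, and Myh4 lies at -1.28.

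Other muscle genes were counted in lists of related genes, against 8.92% of all tested probe-sets lower in saline skin and 4.46% higher with IMO-8400. Of the probe-sets of other sarcomere genes 17.3% fell in saline skin and 25% rose with IMO-8400. By gene these were 4 and 8 of 25, including the myosin light chain kinase gene Mylk4 (log2 -1.59 and 2.27) and Myom2 of the M-band (-1.21 and 1.14). Of the probe-sets of other genes of muscle energy supply 41% fell in saline skin and 20.5% rose with IMO-8400. By gene these were 8 and 5 of 20, among them the glucose transporter Slc2a4 (-1.70 and 1.40) and the pyruvate dehydrogenase kinase Pdk4 (-1.67 and 1.29). For other genes of calcium handling the share that fell in saline skin, 8.33% of probe-sets, was near that of all, with 1 of 11 genes lower (Jph1, -1.21) and 1 higher (Cacng1, 1.49), while 25% of probe-sets and 4 of 11 genes rose with IMO-8400. In the dystrophin complex and membrane 47.1% of probe-sets fell in saline skin and 29.4% rose with IMO-8400, with 3 of 8 genes in each case, including Dmd (dystrophin) with -1.95 in saline skin.

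Of the 12 genes of the developing muscle list, 2 rose in saline skin and 10 were not DEGs (11.8% of its probe-sets were higher, against 7.58% of all), and slow myosin was near background. The 2 were Myh3 and Myh8, the embryonic and perinatal heavy chains. Myh3 had group means of 2.77 in naïve, 9.33 in saline, 5.94 in IMO-3100 and 11.0 in IMO-8400 mice (saline against naïve adjusted p = 0.00026), and Myh8 of 3.98, 8.15, 5.98 and 10.3 (adjusted p = 0.00246). The cardiac actin Actc1, which developing fibres also make, had means of 5.76, 10.4, 6.64 and 12.4 (adjusted p = 0.0119). Actc1 was counted in another list, that of cardiac and slow isoforms. Of its 7 tested genes 2 rose in saline skin, Actc1 and Tnni3 (14.3% of probe-sets, against 7.58% of all). By contrast Myh7, the myosin heavy chain of slow fibres, lay at 2.13 to 2.17 in the means of all 4 groups, and the slow light chains Myl2 and Myl3 lay at 2.02 to 2.10 and at 2.82 to 2.84. These 3 define slow fibres and were not tested because their SD did not exceed 0.1. In the developing muscle list, 4 of 12 genes (Myh3, Myh8, Myog and Mymk) were higher with IMO-8400 than in naïve mice (23.5% of probe-sets, against 3.60% of all). With IMO-8400 against saline none of the 12 was a DEG. Myh3 was lower with IMO-3100 than with saline (5.88%, against 3.73% of all). Myh3 and Myh8 were higher with IMO-8400 than with IMO-3100 (17.6%, against 0.333% of all).

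The mice with the highest mean of the slow troponins within each injected group were the same mice that had the highest mean of the developing muscle list. The slow troponin means were 10.7 and 10.8 in saline mice 12 and 13 against 7.77 to 8.69 in the other 3, and the developing muscle means were 6.95 and 6.86 against 5.14 to 5.25. IMO-3100 mouse 10 had 10.0 for slow troponins against 5.71 to 6.25 in the others, and 5.98 for developing muscle against 4.26 to 5.03. IMO-8400 mice 3 and 5 had 12.0 and 11.7 against 8.31 to 9.54, and 8.44 and 7.83 against 5.64 to 6.35. The lists share no gene. The split of the mice was noticed in these values, and no test was made of it.

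**Figure D5:**
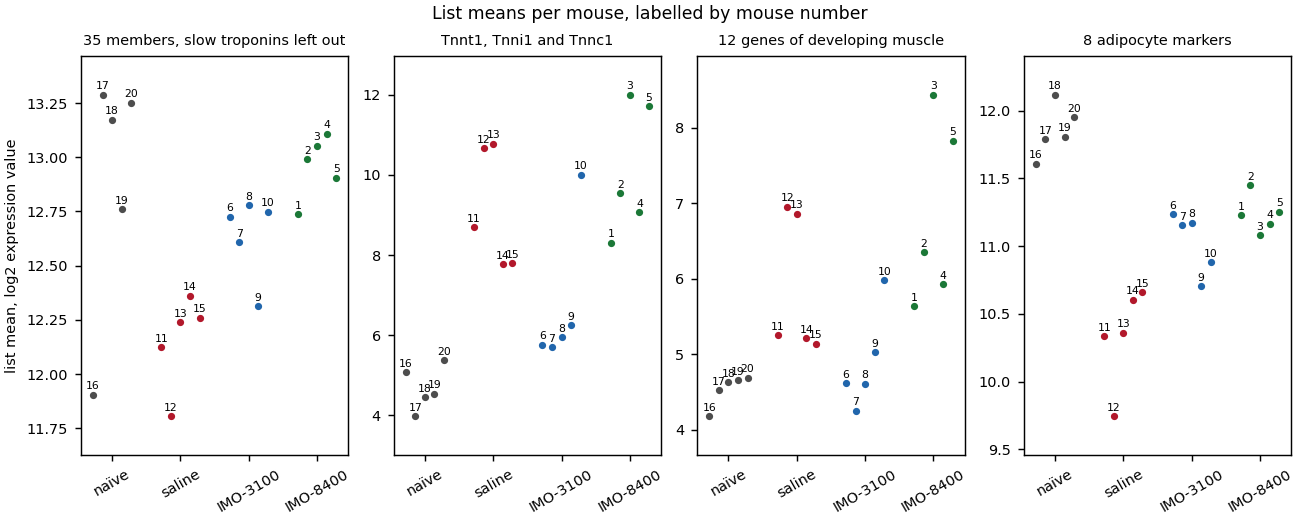
Mean log2 expression value (y axis, a scale of its own in each panel) of 4 gene lists in each mouse, by group, with the mouse number above each point. Saline mice 12 and 13, IMO-3100 mouse 10 and IMO-8400 mice 3 and 5 are highest in their groups for both the slow troponins and the developing muscle list, and naïve mouse 16 lies with the saline mice for the 35 other members but with the naïve mice for the adipocyte markers.

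Markers of fat, like the muscle genes other than slow troponins, had their lowest group mean in saline skin. The order of the naïve and IMO-8400 groups differed between the 2 lists by the mean but not by the median. The mean of 35 muscle genes per mouse was 11.9 to 13.3 in naïve, 11.8 to 12.4 in saline, 12.3 to 12.8 in IMO-3100 and 12.7 to 13.1 in IMO-8400 mice. The mean of 8 adipocyte markers, genes of the fat layer that lies over this muscle, was 11.6 to 12.1, 9.75 to 10.7, 10.7 to 11.2 and 11.1 to 11.5 in the same order. All IMO-8400 mice thus lay below all naïve mice for the adipocyte markers. For the muscle genes the group mean was 12.96 with IMO-8400 and 12.88 in naïve mice, which included mouse 16 at 11.9. The group medians of the muscle genes had the reverse order, with 12.99 for IMO-8400 and 13.17 for naïve mice. Of these 8 adipocyte markers 5 fell in saline skin (Adipoq, Cidec, Lep, Retn and Fabp4), and Adipoq, Cidec and Retn rose with each antagonist, and none of the defining markers was near background in any group. By probe-set 66.7% fell, where 8.92% of all tested probe-sets did. The smooth muscle and Schwann cell lists also had their lowest group means in saline skin, at 8.32 and 7.69 against 9.54 and 8.96 in naïve mice. Leukocyte markers rose in 4 of 8 genes in saline skin, or 63.6% of probe-sets against 7.58% of all. Their list means were 9.18 to 11.6 in naïve, 12.0 to 12.4 in saline, 12.0 to 12.2 in IMO-3100 and 11.1 to 11.7 in IMO-8400 mice. Of the fibroblast markers 0 of 6 were DEGs (2 lower at the FDR alone). The part of sampling depth, fat or leukocyte RNA in the muscle values was not tested.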

How the data were processed

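Skin RNA of 20 mice was hybridised to Affymetrix mouse genome arrays. Per the methods of the study, the authors checked the arrays with Harshlight and arrayQualityMetrics and deposited GCRMA-normalized log2 values, 1 column per mouse (the GCRMA version was not given in the sources used here). Groups were taken from the sample labels. Probe-sets were named by the platform annotation: 34958 carried a single gene symbol, 932 several and 9211 none, and 34754 of the single ones were matched to RefSeq by gene number.

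Probe-sets were kept where 3 or more arrays exceeded a value of 2 and the SD over arrays exceeded 0.1, as in the study, which left 30960. Since the lowest value of every array was 2.019, only the SD removed any. A model of 4 group means over all 20 arrays was fitted with limma 3.58.1 (R 4.3.3), with two-sided moderated tests, Benjamini-Hochberg adjustment over all tested probe-sets, and calls at FDR under 0.05 with FCH over 2. The fit was tested on simulated data. With 1 array per mouse, p-values measure the spread between mice. Near background means all 5 arrays of a group below 3.

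Values of every mouse are given for the 2 members of each role with the largest change in saline against naïve mice (groups near background left out) and for members called in an antagonist comparison. The members and all gene lists (muscle, adipocyte, smooth muscle, leukocyte, keratinocyte, fibroblast, endothelial, Schwann cell and hair follicle) were chosen with earlier results of these data known. The slow troponin list was written after the values were seen. Lists are described by counts and medians, without a test.

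Alternatives were other filters, a floor of 4, 2 other scalings, fits of the compared groups alone, trend and robust estimation, array weights, the mean of a gene's probe-sets, and each mouse left out. Leaving out naïve mice 16 and 17 together was added after seeing the data. Promoters came from RefSeq (GRCm38.p6) and were searched on both strands for CANNTG, the MEF2 site, the CArG box and TATAAA. Figures were drawn with matplotlib 3.10.9 in Python 3.11.15.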

Additional observations from a re-analysis of the deposited data

Results flagged for a closer look

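The 5 mice of a group formed 1 set for each named member, and 10 of 48 sets held a mouse that stood apart. Dixon's criterion was used, which is the gap to the nearest mouse as a share of the group's range. By chance it flags about 1 in 20 independent sets. The 48 sets share the same mice and related genes, so that their count cannot be set against that rate. Among the slow troponins the mouse apart was naïve mouse 20 for Tnnc1 (0.813), IMO-3100 mouse 10 for Tnnt1 (0.768) and for Tnni1 (1), and naïve mouse 16 for Tnni1 (0.949). For Tnni1 the other 4 IMO-3100 mice shared 1 value. Ldb3 had such a mouse in 3 groups, namely naïve mouse 16 (0.726), saline mouse 12 (0.875) and IMO-8400 mouse 1 (0.796), each the lowest of its group. IMO-3100 mouse 9 was apart, and lowest, for Cacna1s (0.776) and Ryr1 (0.839), and IMO-8400 mouse 4 was apart, and highest, for Ckm (0.838).

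The responses to the antagonists, each against the same saline mice, differed by a test of the difference itself for Tnni1 (log2 4.413, adjusted p = 0.0262 in limma) and Xirp1 (1.189, adjusted p = 0.0468). Both were higher with IMO-8400. The Tnni1 groups overlapped, since IMO-3100 mouse 10 (8.30) lay above IMO-8400 mice 1 (7.42) and 4 (7.82), and the Xirp1 groups did not. The Tnni1 call held in 15 of the 20 fits that left out 1 mouse, and the Xirp1 call in 4 of 20.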

How the results depend on the processing

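No paired analysis was possible because the groups share no replicate numbers. Of the 24 values of named members that were DEGs, none turned direction. Over all alternatives but those that left out 1 mouse, 207 of their 216 refitted values kept the call and 9 lost it, and over the fits without 1 mouse 441 of 480 kept it and 39 lost it. Values that were not DEGs did turn sign. The median of IMO-8400 against naïve mice went from 0.07 to -0.16 without naïve mouse 16, -0.14 with array weights and -0.12 without both naïve mice 16 and 17. Without naïve mouse 16, Ttn went from 0.03 to -0.32, Cacna1s from 0.37 to -0.13 and Ryr1 from 0.22 to -0.05 in that comparison. The 1 probe-set lower with IMO-3100 than with saline became 0 with no filter, with values under 4 set to 4 and with the 2 groups fitted alone. The 2 probe-sets higher with IMO-8400 than with IMO-3100 became 1 with no filter, with that floor and after quantile normalization, and 4 with array weights or without both naïve mice 16 and 17. The 2 lower with IMO-3100 than in naïve mice became 1 with the 2 groups alone and 4 with array weights. The 0 lower with IMO-8400 than in naïve mice became 1 without both naïve mice 16 and 17.

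Leaving out 1 mouse gave 14 to 31 probe-sets lower in saline than in naïve mice (14 without naïve mouse 17, 31 without naïve mouse 16), 2 to 3 higher, 2 to 8 higher with IMO-3100 than with saline (2 without IMO-3100 mouse 6, 8 without saline mouse 14) and 0 to 3 lower (3 without IMO-3100 mouse 10). It gave 18 to 25 higher with IMO-8400 than with saline, 0 to 4 higher than with IMO-3100, and 2 to 4 lower with IMO-3100 than in naïve mice (4 without naïve mouse 16). The median of the 38 genes ranged from -1.01 to -0.59 in saline against naïve mice, from 0.37 to 0.53 for IMO-3100 and from 0.73 to 0.96 for IMO-8400 against saline. The calls of Xirp1 between the antagonists, of Tnni1 in saline against naïve mice and in IMO-3100 against each other IL-23 group, and of Cacna1s in saline skin were those that single mice decided. With no filter the Cacna1s call was lost as well (adjusted p = 0.0588), and with the 2 groups alone (0.127). The number of arrays limits what could be detected, and values near the array's lowest signal have no reliable order.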

Other observations

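Genes of muscle wasting and the smooth muscle of the skin also differed between the groups. Fbxo32, the ubiquitin ligase atrogin-1 that marks muscle atrophy, had means of 11.6 in naïve, 9.35 in saline, 11.0 in IMO-3100 and 11.6 in IMO-8400 mice, and it fell in saline skin (log2 -2.29, adjusted p = 2.108e-06 in limma) and rose with each antagonist (1.68 and 2.27). Of 9 atrophy genes, 3 fell in saline skin (Fbxo32, Fbxo31 and Foxo1) and 3 rose with IMO-8400 (Trim63, Fbxo32 and Fbxo31). By probe-set 20% of this list fell and 20% rose, where 8.92% of all tested probe-sets fell and 4.46% rose. Of 8 smooth muscle markers 6 fell in saline skin (58.3% of probe-sets) and 3 rose with IMO-8400 (33.3%). The largest of these differences in saline skin were those of Actg2 (-2.16) and Lmod1 (-2.05), and Myh11, the smooth muscle myosin, had -1.36. Of 6 genes of the neuromuscular junction, Chrna1, a subunit of the acetylcholine receptor, rose in saline skin (1.76, adjusted p = 0.0461). This was 16.7% of the list's probe-sets, against 7.58% of all.

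Mybpc3, the cardiac form of myosin-binding protein C, was high in antagonist-treated mice. It lay between 2.38 and 2.57 in naïve mice and between 2.78 and 3.08 in saline mice, whereas IMO-3100 mice had 8.12, 8.97, 5.98, 5.27 and 6.76 and IMO-8400 mice 4.65, 5.40, 6.41, 5.64 and 5.27. The groups treated with an antagonist did not overlap the others. Mybpc3 was at least 16.24-fold higher with IMO-3100 and at least 5.557-fold higher with IMO-8400 than in naïve mice, with the naïve mice set at the background limit of 3 (adjusted p = 5.45e-06 and 0.000471). With a limit of 4 these bounds were 8.122-fold and 2.779-fold. Against saline mice they were the same at that limit (adjusted p = 2.99e-05 and 0.00101). Tnni3, the cardiac troponin I, rose in saline skin (6.17 to 8.47, adjusted p = 0.000114). Both genes are of the list of cardiac and slow isoforms, with 7 genes tested. Of these, 2 were higher with IMO-3100 than in naïve mice (14.3% of probe-sets, against 4.90% of all). With IMO-8400, 4 were higher than in naïve mice (35.7%, against 3.60% of all). Of the remaining marker lists, all 9 hair follicle genes tested (100% of probe-sets), 2 of 4 Schwann cell genes (61.5%) and 1 of 7 keratinocyte genes (7.69%) fell in saline skin. Of all tested probe-sets 8.92% fell, so that the keratinocyte share was near that of all. The hair follicle list mean varied from 4.02 to 13.51 between naïve mice. In saline mice it was 3.08 to 3.52, where the lowest value of the arrays was 2.019. Of 7 endothelial genes 0 were DEGs (1 lower at the FDR alone).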
